A study of Mus musculus with 4 samples.

Results

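The genes described here are 7 genes that mark the monocyte lineage in the mouse, Ccr2, Cx3cr1, Ms4a4c, Ms4a6b, Ms4a6c, F13a1 and Ly86, chosen by name from 53465 genes in the count table. All 7 were among the 14682 genes with enough reads to be tested. They were measured by RNA-seq in myeloid-derived suppressor cells (MDSCs), immature cells of the myeloid lineage that expand in cancer, taken from the spleens of BALB/c mice carrying 4T1 tumors, a transplanted mouse mammary carcinoma line. The control group was kept in control medium and the EGCG treatment group received 5 µg/mL epigallocatechin-3-gallate (EGCG), the main catechin of green tea, for 6 h in culture, with 2 libraries in each group. The mice were male, 6 weeks old at injection and of no stated genetic modification, and all 4 libraries came from tumor-bearing animals, so no cells of healthy mice were compared. The labels place the sacrifice on day 21 after injection, whereas the study's methods give an earlier day. No source used here says if replicate libraries represent separate animals or separate wells, so the p-values measure only the spread between these libraries, which may be technical.

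In mice, classical monocytes (Ly6C high) leave the bone marrow through the chemokine receptor CCR2 and enter inflamed tissue and tumors, while nonclassical monocytes (Ly6C low) carry high CX3CR1 and patrol the vessel wall. MDSCs hold a monocytic and a larger granulocytic population, and the Gr-1 antibody used to pull these cells from the spleen binds both Ly6C and Ly6G. The genes here cover both kinds of monocyte: Ccr2 and Cx3cr1 encode the receptors, the Ms4a genes encode membrane proteins that cross the membrane several times, F13a1 encodes the A subunit of clotting factor XIII and Ly86 encodes MD-1.

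The libraries held between 17767318 and 18390385 counts in genes. Each level below is given in CPM, the count scaled to the size of the library, with library sizes adjusted by the trimmed mean of M values. The antibody's targets and the myeloid marker were present in all 4 libraries, with Itgam (CD11b) at 646.3 to 757.9 CPM, Ly6g at 943.2 to 1200 CPM and Ly6c2 at 120.3 to 157.8 CPM. The 18 neutrophil markers summed to between 66683 and 87380 CPM, and the 7 monocyte genes to between 289.0 and 328.6 CPM, so transcripts of these genes made up a small part of the RNA. In bulk RNA, fewer cells of a type and less RNA per cell cannot be told apart.

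None of the 7 genes changed with EGCG by edgeR's quasi-likelihood test at a Benjamini-Hochberg adjusted p under 0.05, and DESeq2 also called 0. Over all tested genes the same edgeR test called 22, or 0.150% (20 lower and 2 higher with EGCG). At an unadjusted p under 0.05, 1 of the 7 genes passed by edgeR and 1 by DESeq2, F13a1 in both, against 12.2% of all tested genes by edgeR and 922 of 14682 by DESeq2. The fitted log2 fold change was below 0 in 5 genes and above 0 in 2, with a median of -0.06 against 0.0031 over all tested genes. The signs of Ccr2 and Ms4a6b, both near 0, changed with the filter or scaling. Those of Ccr2, Ms4a4c and Ms4a6b changed when a library was left out. Both EGCG libraries lay below both control libraries in 2 genes, Ms4a6c and F13a1, which is true of 21.2% of tested genes, and above them in 1 gene, Ly86, which is true of 21.5%. In the other 4 genes the libraries of the groups overlapped. The summed level of the 7 genes was 315.9 ± 18.1 CPM in the control group and 297.4 ± 11.8 CPM in the EGCG treatment group (SD, n = 2), and the groups overlapped, since EGCG replicate 1 (305.8 CPM) lay above control replicate 2 (303.1 CPM).

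**Figure D1:**
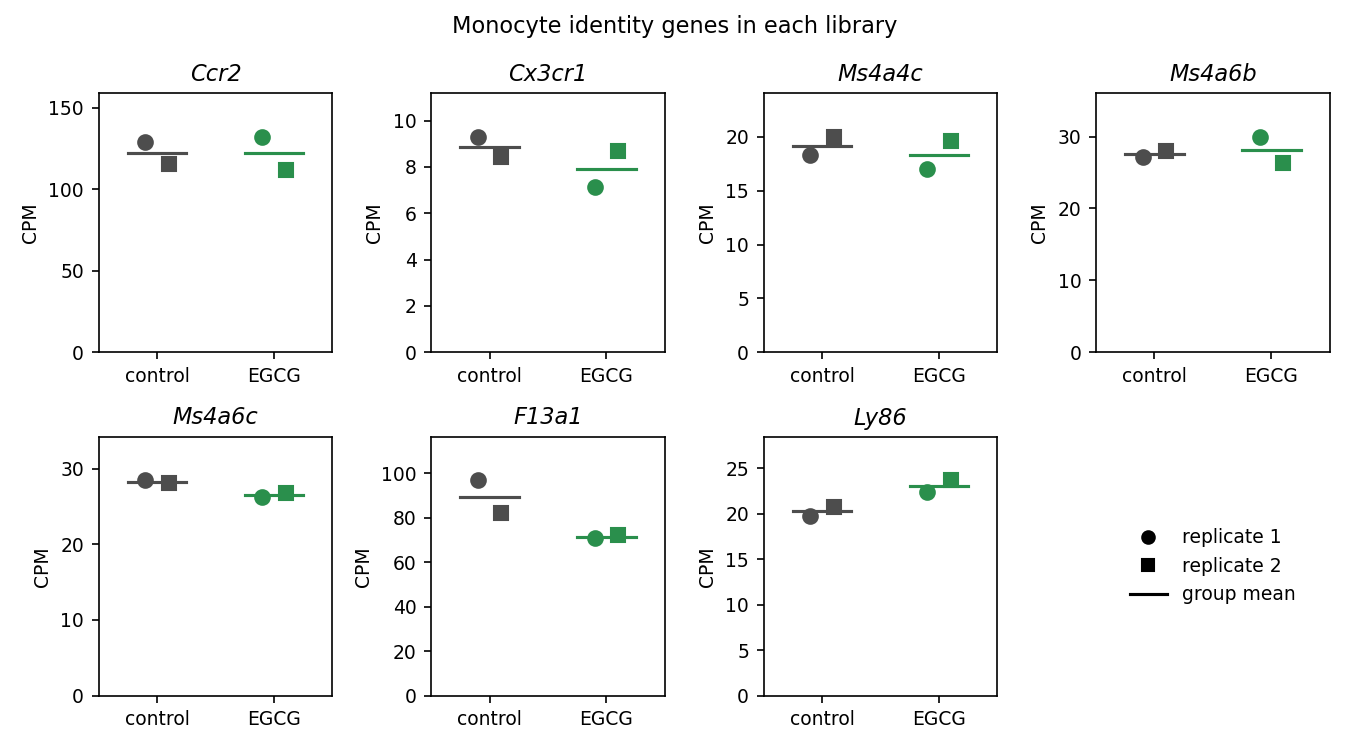
Level of each of the 7 genes in each library, in CPM on axes that start at 0; circles are replicate 1, squares replicate 2 and lines the group means. The control and EGCG libraries are apart in F13a1, Ms4a6c and Ly86 and overlap in Ccr2, Cx3cr1, Ms4a4c and Ms4a6b.

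Ccr2 (ENSMUSG00000049103, chr9:124101950-124113557, plus strand, GRCm38) encodes the receptor for CCL2. Its counted level per length was the highest of the 7 genes, with a limit for Ms4a6c given below. Control replicates 1 and 2 gave 2351 and 2066 counts and EGCG replicates 1 and 2 gave 2397 and 1997, or 128.8, 115.6, 132.2 and 111.8 CPM. The EGCG libraries were the highest and the lowest of the 4. The group means were 122.2 ± 9.29 CPM and 122.0 ± 14.4 CPM (SD, n = 2), a log2 fold change of -0.0021 ± 0.09 (SE). The edgeR 95% interval of the fold ran from 0.873 to 1.14, with a Benjamini-Hochberg adjusted p of 0.997. Replicate 1 exceeded replicate 2 in both groups, by 1.11 times in the control group (exact 95% counting interval 1.05 to 1.18) and by 1.18 times in the EGCG treatment group (1.11 to 1.25), so the replicates of Ccr2 differed by more than counting error while the group means did not separate.

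Cx3cr1 (ENSMUSG00000052336, chr9:119901616-120069879, minus strand) encodes the receptor for fractalkine and was the least abundant per length. Control medium gave 170 and 151 counts and EGCG 129 and 155, or 9.31, 8.45, 7.12 and 8.68 CPM. EGCG replicate 1 was the lowest, and EGCG replicate 2 lay between the control libraries. The means of 8.88 ± 0.608 CPM and 7.90 ± 1.11 CPM (SD, n = 2) gave a log2 fold change of -0.17 ± 0.16 (SE; 95% interval -0.52 to 0.18) and an edgeR adjusted p of 0.725. The interval spans changes in both directions. Leaving out EGCG replicate 1 brought the log2 fold change of Cx3cr1 to -0.031, and leaving out EGCG replicate 2 brought it to -0.32.

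Among the ligands of these receptors and the chemokine receptors next to Ccr2, 7 of 9 genes could be tested and edgeR called 0 of them at an adjusted p under 0.05, nor did any pass before adjustment (0 genes). The log2 fold change was below 0 in 5 and above 0 in 2, with a median of -0.05 that turned to 0.013 without control replicate 2. Ccr1, a receptor for inflammatory chemokines that lies in the same cluster, stood at 378.2 ± 43.6 CPM in the control group and 365.3 ± 32.2 CPM with EGCG (SD, n = 2), a log2 fold change of -0.05. Ccrl2, an atypical chemokine receptor, had a log2 fold change of 0.06 (edgeR adjusted p = 0.843). Both changed sign with a library left out, Ccr1 to 0.075 without control replicate 2 and Ccrl2 to -0.059 without control replicate 1. The ligand genes Ccl8 and Ccl12 were too low to test.

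The 3 Ms4a genes lie in one cluster on chromosome 19: Ms4a4c (ENSMUSG00000024675, chr19:11404770-11427246), Ms4a6c (ENSMUSG00000079419, chr19:11469366-11482192) and Ms4a6b (ENSMUSG00000024677, chr19:11516512-11531256), all on the plus strand. The promoters of Ms4a6b and Ms4a6c, from 250 bases before to 50 bases after the start in RefSeq (GRCm38.p6), are shown because they resemble each other: their best local alignment held 182 identical bases in 222 columns (82.0%), while the Ms4a4c promoter aligned with each over 26 columns only. Capitals mark AGGAAGT, searched on both strands, the core to which ETS factors such as PU.1, the master regulator of myeloid cells, bind.
Ms4a6b (chr19:11518309-11518608, plus strand): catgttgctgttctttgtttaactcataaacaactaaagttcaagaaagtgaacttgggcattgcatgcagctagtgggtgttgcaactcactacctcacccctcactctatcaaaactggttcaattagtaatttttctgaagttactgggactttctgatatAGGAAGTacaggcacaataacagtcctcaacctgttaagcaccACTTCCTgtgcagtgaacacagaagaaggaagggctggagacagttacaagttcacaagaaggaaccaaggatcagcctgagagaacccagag
Ms4a6c (chr19:11469118-11469417, plus strand): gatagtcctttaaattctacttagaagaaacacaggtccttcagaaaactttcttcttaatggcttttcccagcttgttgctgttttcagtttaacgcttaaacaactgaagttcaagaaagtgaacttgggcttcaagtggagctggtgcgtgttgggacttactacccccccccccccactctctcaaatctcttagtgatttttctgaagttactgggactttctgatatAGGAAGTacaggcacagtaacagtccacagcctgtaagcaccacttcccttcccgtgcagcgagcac
In Ms4a6b the letters begin at -86 on the plus strand and -43 on the minus strand, where the complement is read, and in Ms4a6c at -17 on the plus strand, counted from the start site. They occur in 9.35% of 32851 promoters of the same length. They do not occur in the promoter windows of Ccr2, Cx3cr1, Ms4a4c and Ly86. The ETS-IRF composite element and the interferon-stimulated response element (in 2.72% and 3.44% of promoters), searched on both strands, were found in 0 of the 8 windows of the 7 genes. These matches describe the sequence only.

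Ms4a4c was read 334, 358, 309 and 350 times in control replicates 1 and 2 and EGCG replicates 1 and 2, or 18.3, 20.03, 17.04 and 19.6 CPM. EGCG replicate 2 lay between the control libraries. The group means were 19.2 ± 1.23 CPM and 18.3 ± 1.81 CPM (SD, n = 2). The log2 fold change of Ms4a4c was -0.06 ± 0.12 (SE, 95% interval -0.32 to 0.19), with an edgeR adjusted p of 0.874. It was 0.0040 without control replicate 2, 0.035 without EGCG replicate 1 and -0.17 without EGCG replicate 2. Of the 31-base words in its exons, 17.1% also occur in other genes, most of them in the neighbour Ms4a4b.

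Ms4a6b stood at 27.2 and 28.04 CPM (497 and 501 counts) with control medium and at 30.0 and 26.3 CPM (544 and 469 counts) with EGCG. The EGCG libraries were the highest and the lowest, as in Ccr2. The means of 27.6 ± 0.578 CPM and 28.1 ± 2.65 CPM (SD, n = 2) gave a log2 fold change of 0.03 ± 0.10 (SE; 95% interval -0.20 to 0.25; edgeR adjusted p = 0.9495), a direction that turns to -0.0087 when libraries are scaled by their totals alone. The 2 EGCG libraries differed by 1.14 times (exact counting interval 1.01 to 1.296).

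Ms4a6c stood at 28.5 and 28.1 CPM (520 and 502 counts) with control medium and at 26.3 and 26.8 CPM (477 and 478 counts) with EGCG. Both EGCG libraries were lower than both control libraries, and the replicates of each group lay close together. The means were 28.3 ± 0.273 CPM and 26.5 ± 0.321 CPM (SD, n = 2). The log2 fold change of -0.09 ± 0.10 (SE; 95% interval -0.30 to 0.12) did not pass, with an edgeR adjusted p of 0.756. Of the 31-base words in its exons, 58.1% also occur in other genes, most of them in the antisense gene BE692007, which had 90 to 129 counts. The reads were counted without regard to strand, so reads from these overlapping exons cannot be assigned with certainty.

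Of the 15 other Ms4a genes on the list, 9 could be tested and 4 had no reads in any library. EdgeR called 0 of the 9 at an adjusted p under 0.05. Before adjustment 3 of the 9 passed, against 12.2% of all tested genes, with Ms4a1 higher and Ms4a4a and Ms4a14 lower with EGCG. The median log2 fold change of the 9 was -0.13, with 6 below 0 and 3 above, and -0.061 over 11 genes without the filter on low counts. Ms4a1, which encodes CD20 of B cells, stood at 43.5 ± 4.77 CPM in the control group and 52.4 ± 6.87 CPM with EGCG (SD, n = 2), a log2 fold change of 0.27 (edgeR adjusted p = 0.335). Ms4a3, a gene of granulocyte and monocyte progenitors, had a log2 fold change of 0.21 (edgeR adjusted p = 0.480) and Ms4a4a, a macrophage gene, one of -0.26 (edgeR adjusted p = 0.306).

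F13a1 (ENSMUSG00000039109, chr13:36867178-37050244, minus strand) had the largest difference of the 7 genes. The protein is a transglutaminase that crosslinks fibrin, made by monocytes and macrophages as well as by megakaryocytes. RefSeq gives the gene more than one start, and the window below is shown because it holds AGGAAGT (capitals), at -36 and at 15 on the strand of the gene, while the window of the other start has none.
F13a1 (chr13:37049164-37049463, minus strand): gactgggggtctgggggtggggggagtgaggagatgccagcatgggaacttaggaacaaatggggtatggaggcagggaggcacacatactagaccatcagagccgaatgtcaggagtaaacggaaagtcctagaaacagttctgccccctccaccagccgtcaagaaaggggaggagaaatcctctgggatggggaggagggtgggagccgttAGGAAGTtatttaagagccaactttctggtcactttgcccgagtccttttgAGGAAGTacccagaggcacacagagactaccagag
Control replicates 1 and 2 gave 1769 and 1467 F13a1 counts and EGCG replicates 1 and 2 gave 1283 and 1290, or 96.9, 82.1, 70.8 and 72.2 CPM. Both EGCG libraries lay below both control libraries. The control libraries differed from each other by 1.18 times (exact 95% counting interval 1.10 to 1.27), and the EGCG libraries by 0.980 times (0.906 to 1.06). The group means were 89.5 ± 10.5 CPM and 71.5 ± 1.03 CPM (SD, n = 2), a log2 fold change of -0.32 ± 0.09 (SE), or 0.799-fold (95% interval 0.700 to 0.911). The unadjusted p of 0.0026 became an adjusted p of 0.170 in edgeR's quasi-likelihood test, so F13a1 did not pass, and 10.4% of all tested genes had a lower log2 fold change. Without control replicate 2 the log2 fold change was -0.44, and without control replicate 1, the highest library, it was -0.19.

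As a share of the summed CPM of the 7 genes, F13a1 made up 29.5% and 27.1% with control medium but 23.1% and 24.99% with EGCG. Ccr2 made up 39.2% and 38.2% with control medium and 43.2% and 38.7% with EGCG. Marker lists of other cell types that can hold F13a1 RNA lay lower with EGCG as well. The 12 macrophage markers summed to 486.0 and 462.8 CPM with control medium and 357.2 and 397.7 CPM with EGCG, with 10 of 12 log2 fold changes below 0 and a median of -0.29. The median was -0.084 without EGCG replicate 1 and -0.52 without EGCG replicate 2. The 8 platelet and megakaryocyte markers summed to 45.6 and 52.1 CPM and to 40.0 and 41.9 CPM, all 8 below 0 with a median of -0.21. Leaving out control replicate 2 brought that median to -0.0021, and leaving out control replicate 1 to -0.46. Without EGCG replicates 1 and 2 in turn it was -0.11 and -0.33. EdgeR called 0 macrophage and 0 platelet markers at an adjusted p under 0.05. Unadjusted, 6 of 12 and 1 of 8 passed, against 12.2% of all tested genes. DESeq2 called 2 macrophage markers, Cd5l and Mrc1, both lower, among 68 genes it called in all. The part of these cell types in the level of F13a1 was not tested. The overlapping gene AC104200.1 had 0 to 1 counts.

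Of the 4 other factor XIII and transglutaminase genes, F13b, the B subunit made by the liver, had no reads and 3 were tested, with 0 called by edgeR after adjustment. Tgm1 and Tgm2 were lower at an unadjusted p under 0.05 (2 of 3 genes, against 12.2% of all tested genes). Tgm2, the tissue transglutaminase, stood at 197.1 ± 31.9 CPM in the control group and 163.8 ± 19.9 CPM with EGCG (SD, n = 2), a log2 fold change of -0.27 (edgeR adjusted p = 0.339). Its groups overlapped, with control replicate 2 at 174.5 CPM and EGCG replicate 2 at 177.9 CPM. Tgm3, an epidermal transglutaminase, had a log2 fold change of 0.08.

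Ly86 (ENSMUSG00000021423, chr13:37345208-37419036, plus strand) encodes MD-1, the secreted partner of the toll-like receptor relative CD180. Control medium gave 360 and 371 counts and EGCG 405 and 423, or 19.7, 20.8, 22.3 and 23.7 CPM. Ly86 was the one gene of the 7 in which both EGCG libraries lay above both control libraries. The group means were 20.2 ± 0.739 CPM and 23.0 ± 0.952 CPM (SD, n = 2). The log2 fold change of 0.19 ± 0.11 (SE; 95% interval -0.04 to 0.41) did not pass in edgeR, with an adjusted p of 0.522, and 84.0% of tested genes had a lower value. The interval includes 0 and values of both signs.

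Of 5 partners and relatives of Ly86, edgeR called 0 at an adjusted p under 0.05. Unadjusted, 1 of the 5, Ly96, passed, against 12.2% of all tested genes. DESeq2 also called 0 of these 5, as it did in the lists of receptors, Ms4a genes and transglutaminases above. Ly96, which encodes MD-2, the relative of MD-1 that binds TLR4, stood at 10.7, 12.9, 17.3 and 14.1 CPM, with both EGCG libraries above the control libraries and a log2 fold change of 0.41 (edgeR adjusted p = 0.277). Cd14, a co-receptor for lipopolysaccharide, had a log2 fold change of 0.09 and Tlr2 one of -0.11. Cd180 itself, named after its values were seen, stood at 17.0, 18.2, 13.02 and 17.1 CPM, with a log2 fold change of -0.23 (edgeR adjusted p = 0.544), opposite in sign to that of Ly86.

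**Figure D2:**
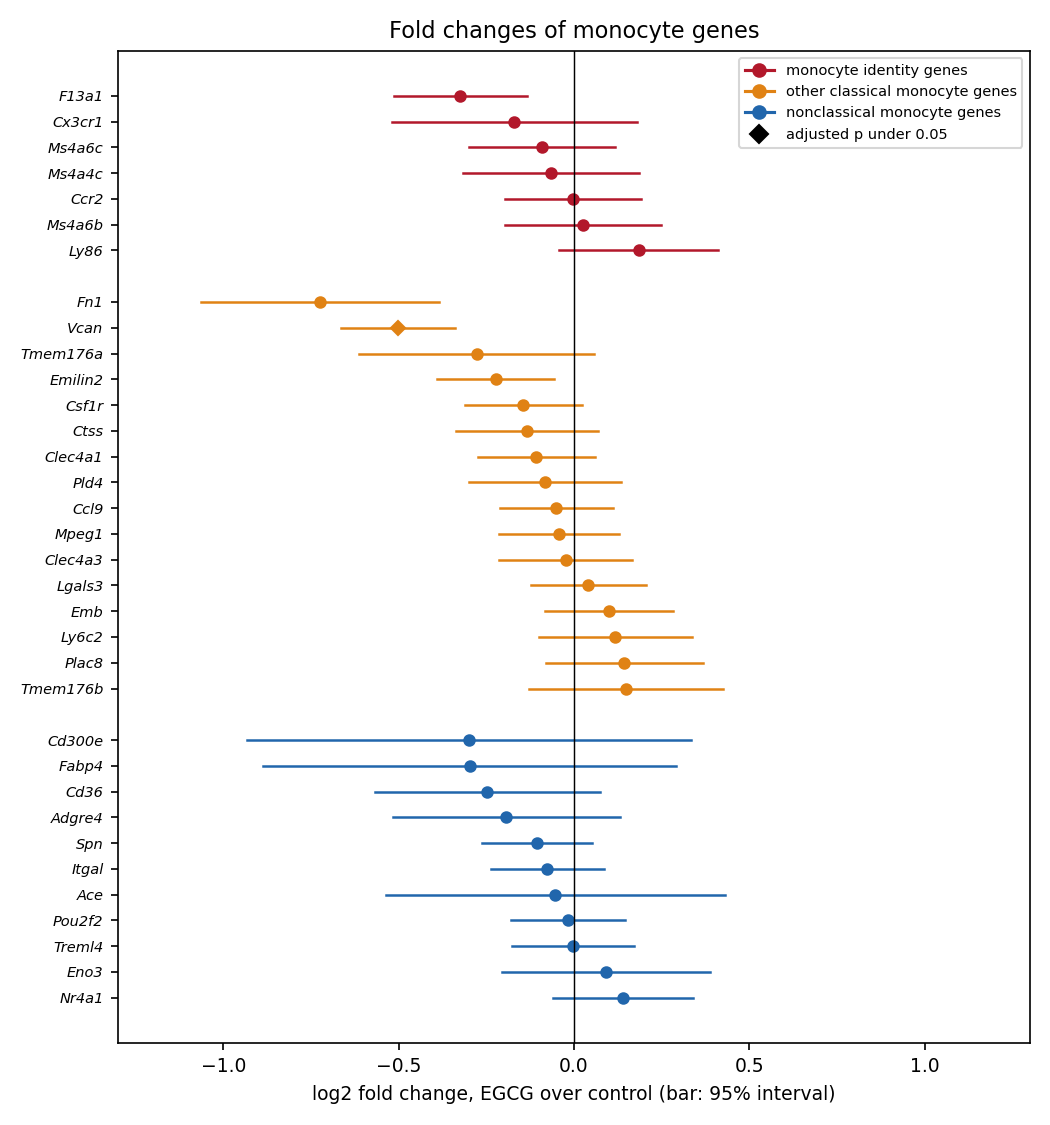
Log2 fold change of EGCG over control for the 7 monocyte identity genes, 16 other classical monocyte genes and 11 nonclassical monocyte genes, with 95% intervals from edgeR; a diamond marks an adjusted p under 0.05. The diamond is Vcan, and among the 7 genes F13a1 alone has an interval that leaves out 0.

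Levels of different genes were compared per length, as RPKM (CPM per kilobase of exon). In the control group Ccr2 came first with 18.1 RPKM, followed by Ms4a6c with 13.8, F13a1 with 13.3, Ms4a4c with 10.9, Ms4a6b with 6.16, Ly86 with 5.57 and Cx3cr1 with 1.97 RPKM. Ms4a6c and F13a1 did not differ beyond their spread there, since F13a1 ranged from 12.2 to 14.4 RPKM. In the EGCG treatment group the means in the same order were 18.05, 12.9, 10.6, 10.5, 6.27, 6.33 and 1.75 RPKM. F13a1 then lay below Ms4a6c in both libraries and overlapped Ms4a4c, and Ms4a6b overlapped Ly86, whereas in the control libraries Ms4a6b was the higher of that pair. Whether these changes of order exceed the spread was not tested beyond the fold changes above. The place of Ms4a6c in the order, also relative to Ccr2, is uncertain in both groups. Of the 31-base words in its exons, 58.1% also occur in other genes, and strand was not used in counting.

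**Figure D3:**
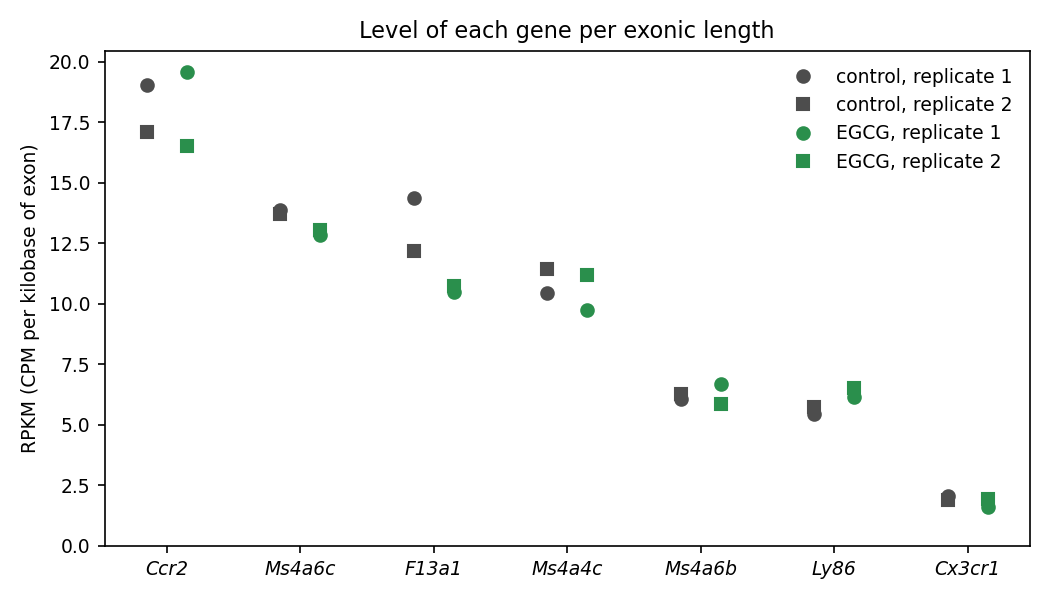
Level of each gene in RPKM (CPM per kilobase of exon) in each library, ordered by the control mean. Ccr2 is highest at a mean of 18.1 RPKM in the control group and Cx3cr1 lowest at 1.97, and F13a1 has a mean of 13.3 RPKM with control medium and 10.6 with EGCG. Much of the Ms4a6c exon sequence also occurs in other genes, so its level is uncertain.

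Of 16 other genes of classical monocytes, 11 had a log2 fold change below 0 and 5 above, with a median of -0.07. EdgeR called 1 of them lower at an adjusted p under 0.05, Vcan, which encodes the matrix proteoglycan versican. Vcan stood at 163.5 and 170.7 CPM in the control libraries and fell to 113.4 and 122.6 CPM with EGCG, a log2 fold change of -0.50 ± 0.08 (SE; edgeR adjusted p = 0.0245). That call was lost without the filter on low counts (edgeR adjusted p = 0.562) and with a correction for gene length (0.154). Fn1 and Emilin2, matrix genes named after their values were seen, had log2 fold changes of -0.72 and -0.22 and passed unadjusted only (edgeR adjusted p = 0.0870 and 0.276). The control libraries of Fn1 stood apart, at 490.3 and 303.6 CPM, against 217.8 and 263.0 CPM with EGCG. Among the alternatives that kept all libraries, Fn1 passed with library size only (edgeR adjusted p = 0.0086) and in no other. Its adjusted p was 0.659 in edgeR with no filter on low counts, 0.513 in the robust edgeR fit and 0.448 in DESeq2. When 1 library was dropped, the log2 fold change of Fn1 ranged from -1.03 (control replicate 2 dropped) to -0.33 (control replicate 1 dropped). Ly6c2, the surface marker that defines classical monocytes, had a log2 fold change of 0.12 (edgeR adjusted p = 0.691), which turned to -0.014 if control replicate 1 was dropped and to -0.013 if EGCG replicate 1 was.

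Of 11 genes of nonclassical monocytes, edgeR called 0 after adjustment and 0 before, with 9 below 0, 2 above and a median log2 fold change of -0.08, which was 0.011 without control replicate 1 and -0.019 with the length correction. Itgal, the alpha chain of the integrin LFA-1, stood at 684.2 ± 12.8 CPM in the control group and 649.3 ± 20.6 CPM with EGCG (SD, n = 2), a log2 fold change of -0.08. Pou2f2, a transcription factor of these cells and of B cells, had a log2 fold change of -0.02 and Cd36, a scavenger receptor, one of -0.25 (edgeR adjusted p = 0.955 and 0.549), and without control replicate 1 they were at 0.031 and 0.12. The control libraries of Cd36 stood apart, at 60.2 and 38.4 CPM, against 41.1 and 42.05 CPM with EGCG. Cx3cr1, described above, is the receptor of this subset and its sign was the same as that of these 9 genes.

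Of 10 transcription factors of the lineage, 5 had a log2 fold change below 0 and 5 above, with a median of -0.0072, and both edgeR and DESeq2 called 0 at an adjusted p under 0.05. The median had no fixed sign, at 0.044 with the length correction. When a library was left out it ran from -0.083 (without control replicate 2) to 0.043 (without control replicate 1), with -0.040 without EGCG replicate 2. Before adjustment 4 of the 10 passed in edgeR, 1 higher (Cebpb) and 3 lower, against 12.2% of all tested genes. Spi1, which encodes PU.1, stood at 877.4 ± 6.03 CPM in the control group and 952.3 ± 15.2 CPM with EGCG (SD, n = 2), a log2 fold change of 0.12 (edgeR adjusted p = 0.570). Cebpb, a factor of emergency myelopoiesis, had a log2 fold change of 0.22 (edgeR adjusted p = 0.324).

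**Figure D4:**
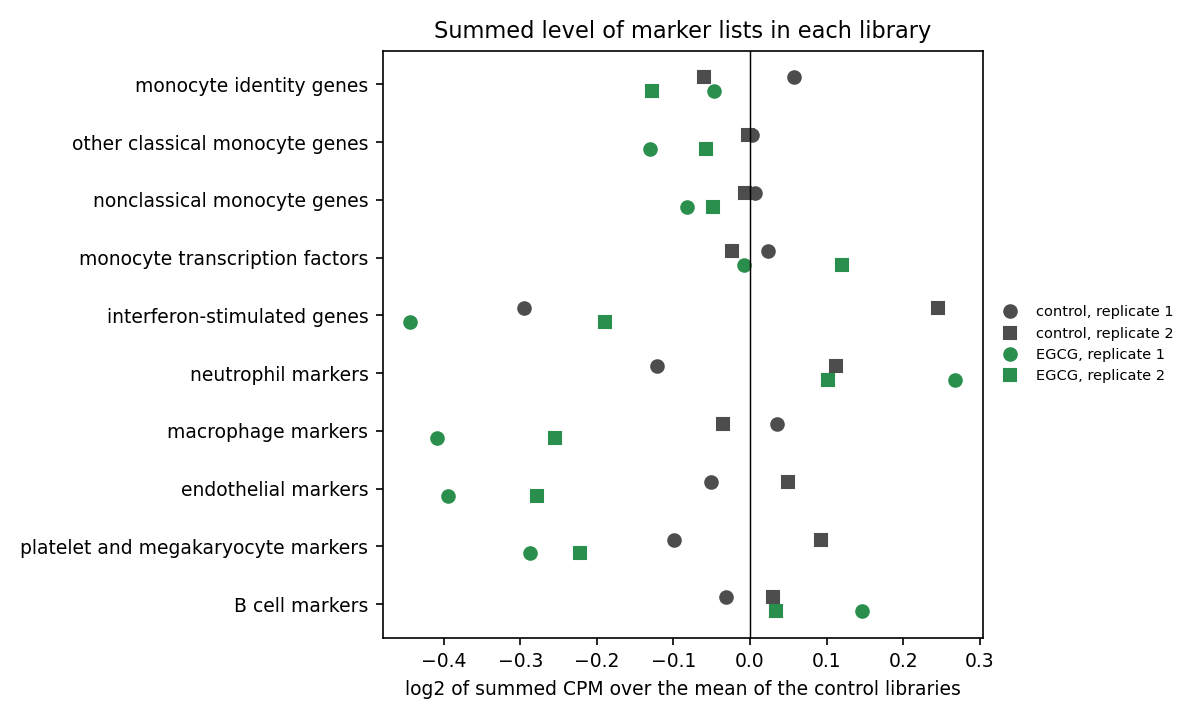
Summed CPM of each gene list in each library, as the log2 ratio to the mean of the control libraries. The 7 monocyte identity genes lie between -0.13 and 0.06, with the groups overlapping, and the macrophage and endothelial markers lie below -0.25 in both EGCG libraries.

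Interferon-stimulated genes, part of the program that monocytes switch on in inflammation, were below 0 in all 23 cases with a median log2 fold change of -0.32. EdgeR called 1 of them at an adjusted p under 0.05, Oasl2, an antiviral gene of the oligoadenylate synthetase family, which fell from 74.5 ± 10.6 CPM to 50.2 ± 2.22 CPM (SD, n = 2; log2 fold change -0.57, edgeR adjusted p = 0.0420). The call was lost under upper-quartile scaling (0.0592), with the length correction (0.0830) and without the filter (0.562). The sum of the list was 1216 and 1770 CPM in the control libraries and 1098 and 1310 CPM with EGCG, so the groups overlapped. Leaving out control replicate 2 moved the median to -0.05, and leaving out control replicate 1 moved it to -0.52. It was -0.17 without EGCG replicate 1 and -0.48, with 10 called lower, without EGCG replicate 2. The median of the 7 monocyte genes with 1 library left out ran from -0.10 to -0.07.

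The markers of other cell types were read in the same way. The 18 neutrophil markers centred on a log2 fold change of 0.04 (median; -0.0093 without EGCG replicate 1), with 12 of them above 0. EdgeR called 0 after adjustment. Before adjustment 1 passed, against 12.2% of all tested genes. Leaving out EGCG replicate 2 instead brought the median of the neutrophil markers to 0.079. S100a9, which encodes a calcium-binding alarmin of neutrophils, had a log2 fold change of 0.21, and its partner S100a8 one of 0.38 (edgeR adjusted p = 0.522 and 0.228). Of the macrophage markers, Adgre1, which encodes F4/80, had a log2 fold change of -0.27, Vcam1 one of -0.23 and the mannose receptor Mrc1 one of -0.63 (edgeR adjusted p = 0.228, 0.349 and 0.0870). The 6 tested endothelial markers were all below 0 with a median of -0.62 (-0.35 without EGCG replicate 1 and -0.98 without EGCG replicate 2). They summed to 132.3 and 141.8 CPM in the control libraries and 104.2 and 113.0 CPM with EGCG. The medians of the dendritic cell markers (-0.10), B cell markers (0.16), T and NK cell markers (0.14), erythroid markers (0.12) and basophil and eosinophil markers (-0.06) were closer to 0. With 1 library left out they ran from -0.17 (EGCG replicate 2) to -0.00085 (EGCG replicate 1) for dendritic cell, from 0.094 (EGCG replicate 1) to 0.17 (control replicate 2) for B cell, and from -0.038 (control replicate 1) to 0.24 (control replicate 2) for T and NK cell markers. The erythroid median ran from 0.054 (EGCG replicate 2) and 0.056 (control replicate 1) to 0.29 (EGCG replicate 1) and 0.30 (control replicate 2). The basophil and eosinophil median ran from -0.25 (EGCG replicate 1) and -0.14 (control replicate 1) to 0.023 (control replicate 2). In these 6 lists edgeR called 0 genes at an adjusted p under 0.05, as did DESeq2. Before adjustment edgeR passed 5 of 6 endothelial, 2 of 9 dendritic cell, 1 of 7 B cell and 0 of 7 T and NK cell markers. It also passed 1 of 6 erythroid and 3 of 7 basophil and eosinophil markers, against 12.2% of all tested genes. Their part in the levels of the monocyte genes was not tested.

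The genes whose course over the 4 libraries was most like the mean of the 7 genes were Mical1, Xylt1, Apaf1, Ptafr and Stt3a. They were taken from 8204 tested genes with a mean of at least 10 CPM, by the root mean square difference of centred log2 CPM, which was between 0.0032 for Mical1 and 0.0072 for Stt3a. For single members the nearest genes were Carns1 for Ccr2 (0.0043), Gm7332 for Cx3cr1 (0.016), Ddx24 for Ms4a4c (0.0056), Rock1 for Ms4a6b (0.0058), Trappc8 for Ms4a6c (0.0011), Tbxas1 for F13a1 (0.0088) and Limd2 for Ly86 (0.0037). Likeness over 4 libraries is a description only.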

How the data were processed

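RNA-seq libraries of splenic MDSCs (2 control, 2 EGCG) were used. The authors deposited whole-number counts per gene, which per the labels and methods were made with bcl2fastq 1.8.4, STAR 2.6.0c and featureCounts 1.6.2 on GRCm38 with Ensembl annotation, counted without regard to strand per the name of the deposited table. The table holds 0 columns of other samples. Totals were 17767318 to 18390385 counts, and counting intervals cover counting error only.

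Counts were tested with edgeR 4.0.16 (R 4.3.3): filterByExpr with a minimum count of 10, TMM, glmQLFit, glmQLFTest, and Benjamini-Hochberg adjustment over 14682 genes. With 2 libraries against 2, an exact permutation test cannot go below p = 0.333, so none is given. Exonic lengths and positions came from GENCODE M21 (GRCm38; lengths for 53360 of 53465 genes), promoters from RefSeq GRCm38.p6, in which all 7 genes matched. Centred log2 CPM used a prior count of 2. Alternatives were other filters and scalings, a newer and a robust edgeR fit, a replicate block, a length correction, DESeq2 1.42.0 and each library left out. With a library left out, its group has no replicate. The spread in that fit then comes from the other group alone, so its calls are not read as results. The test was tried on simulated data.

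The 7 genes and all lists were chosen with earlier results of these data known. Named from each list were every gene past the threshold, otherwise the 2 with the highest mean CPM and the 1 with the smallest p, and for likeness the 5 genes nearest the mean profile and the 1 nearest each gene. Results for some genes that this rule names are not reported here. Some genes stand on 2 lists (Nr4a1, Ms4a1, Ms4a2, Ly6g and Ly6c2).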

Additional observations from a re-analysis of the deposited data

How the results depend on the processing

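None of the 7 genes was called under any of the 10 alternatives to the main settings, and 1 (F13a1, without control replicate 2) was called with a library left out, a range of 0 to 1. F13a1 kept its direction throughout, with log2 fold changes of -0.36 to -0.25 and adjusted p between 0.0609 and 0.678 over the 10 alternatives, and -0.44 to -0.19 with a library left out. The log2 fold change of Ccr2 changed sign without the filter on low counts (0.00098), under upper-quartile scaling (0.0054) and after correcting for gene length (0.071), and that of Ms4a6b with library size only (-0.0087). With a library left out, Ccr2 ranged from -0.13 to 0.11, Cx3cr1 from -0.32 to -0.031, Ms4a4c from -0.17 to 0.035, Ms4a6b from -0.071 to 0.12, Ms4a6c from -0.10 to -0.077 and Ly86 from 0.14 to 0.23, and the median of the 7 genes from -0.10 to -0.071. That median was -0.099 with library size only.

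The number of genes called among all genes, 22 as reported, was 0 without the filter (1795 at an unadjusted p under 0.05), 151 with library size only, 11 with upper-quartile scaling, 63 with the robust fit, 3 with the length correction, 68 with DESeq2, and 77 to 354 with a library left out; the causes were not tested. DESeq2 gave no adjusted p for 2 of the 7 genes, Cx3cr1 and Ms4a4c.

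The replicate 1 minus replicate 2 differences of the groups correlated at 0.034 across genes. With so few libraries, this value cannot show whether libraries of the same replicate number were prepared together. With a replicate block, F13a1 was at -0.32 (adjusted p = 0.155), 0 of the 7 genes and 30 of all genes were called. Cx3cr1 rests on 129 to 170 reads per library.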
